A study of Mus musculus with 12 samples.

Results

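The genes described here present antigen on MHC class II. They were chosen by symbol: the chains H2-Aa, H2-Ab1 and H2-Eb1, the invariant chain Cd74, the peptide loading genes H2-DMa, H2-DMb1, H2-Oa and H2-Ob, and the regulator Ciita. All 9 were found among the 27179 genes of each table. RNA was sequenced from inguinal and epididymal white adipose tissue (iWAT and eWAT) of C57/BL6 mice, with 3 samples of mice injected with the GIP analog (D-Ala2)GIP[Lys37PAL] and 3 of mice injected with saline in each tissue, 12 samples in all. Mice of the GIP groups received 5 subcutaneous doses of 2 pmol/kg over 2 weeks of high-fat diet. In the 10 days of chow before, their 3 injections ended with a single dose of the analog and were otherwise saline. Mice of the saline groups had saline throughout on the same diets. All were 12 to 16 weeks old and served as control mice in a study of intestinal Hnf4a deletion; which of the floxed Hnf4a alleles each of them carried is not given in the sources used here.

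Each table gives 1 average level per gene, as log2 CPM (counts scaled to the library total), over its libraries of both treatments. The columns of single libraries are headed by numbers that match no sample label, and none of them was used. GIP mice were therefore not compared with saline mice here, and no spread between mice stands behind any value below. The comparison made is that of iWAT with eWAT. It has no test, the tables were normalized separately, and depot cannot be told apart from anything else that differed between the tables. The labels do not say whether both depots came from the same mice. Both tables held the defining transcripts of fat: Adipoq, an adipokine, averaged 11.58 log2 CPM in iWAT and 11.84 in eWAT, Plin1, a coat protein of lipid droplets, 8.19 in iWAT and 7.81 in eWAT, and Lep, the gene of leptin, 10.06 in iWAT and 11.06 in eWAT.

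MHC class II molecules are pairs of an alpha and a beta chain that carry peptides from the endosome to the surface of B cells, dendritic cells and macrophages, where CD4 T cells read them. The invariant chain covers the groove until proteases cut it down, H2-DM then exchanges the remnant for peptides, and H2-O, made mostly by B cells and some dendritic cells, holds H2-DM back. Ciita is the coactivator that switches on this set of genes by docking on factors bound to the X and Y boxes of their promoters. In adipose tissue, macrophages and dendritic cells are known carriers of class II, and the inguinal fat pad normally encloses a lymph node.

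Of the 9 genes, 7 lie on chromosome 17 of GRCm38, in the MHC between 34092379 (the start of H2-Oa) and 34316674 (the end of H2-Eb1). Ciita lies on chromosome 16 from 10480014 to 10531064. The promoters of 5 of them are shown because the X and Y boxes are the shared element through which Ciita acts, and because these genes include both the members that differed least and those that differed most between the depots. Each run below covers the 150 bases before the gene's start, from RefSeq for GRCm38.p6, read along the strand of the gene. Capitals mark ATTGG, the core of the Y box, and, where one starts 25 to 40 bases ahead of it on the same strand, AGNNAC, a core of the X1 box.
H2-Aa, chr17:34287824-34287973, minus strand: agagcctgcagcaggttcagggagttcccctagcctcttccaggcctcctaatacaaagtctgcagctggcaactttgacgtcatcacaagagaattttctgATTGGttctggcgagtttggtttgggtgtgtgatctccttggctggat
H2-Eb1, chr17:34305717-34305866, plus strand: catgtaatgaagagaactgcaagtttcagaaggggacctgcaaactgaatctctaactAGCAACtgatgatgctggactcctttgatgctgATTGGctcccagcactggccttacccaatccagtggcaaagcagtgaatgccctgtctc
H2-DMb1, chr17:34153041-34153190, plus strand: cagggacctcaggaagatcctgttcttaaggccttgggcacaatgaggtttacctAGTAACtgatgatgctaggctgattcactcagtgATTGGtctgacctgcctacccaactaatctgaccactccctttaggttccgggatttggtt
H2-Oa, chr17:34092229-34092378, plus strand: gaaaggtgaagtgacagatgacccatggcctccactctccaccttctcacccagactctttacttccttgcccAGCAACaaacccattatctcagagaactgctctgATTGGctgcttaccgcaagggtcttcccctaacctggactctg
H2-Ob, chr17:34238755-34238904, plus strand: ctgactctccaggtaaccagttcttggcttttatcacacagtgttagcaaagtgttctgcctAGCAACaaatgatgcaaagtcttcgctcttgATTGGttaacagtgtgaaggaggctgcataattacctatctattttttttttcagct

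The table of promoters holds 6 of the 9 genes, with 2 start sites for H2-DMa; H2-Ab1, Cd74 and Ciita have no entry. ATTGG, searched on both strands of the 300 bases around each start, was found in 6 of the 7 promoters and in 37.4% of all 32851. In the 5 promoters shown it began at position −48 in H2-Aa, −59 in H2-Eb1, −61 in H2-DMb1, −43 in H2-Oa and −57 in H2-Ob, counted from the gene's start. H2-DMa, not shown, had ATTGG further upstream, at −198, and lacked it at its other start site. AGNNAC preceded it by 33 bases in H2-Eb1, by 34 in H2-DMb1, by 34 in H2-Oa and by 31 in H2-Ob. This arrangement, whose spacing was chosen after the sequences were seen, was present in 4 of the 7 promoters and in 1.49% of all. A longer X1 pattern, AGNNAC followed directly by NGATG, was found on either strand in 3 of the 7, against 0.968% of all, and AGNNAC alone in all 7 and in 90.4% of all. In H2-Oa the longer pattern began at −141, away from the Y box. Both genes of H2-O thus had the pair of cores at about the same spacing as H2-Eb1 and H2-DMb1. H2-Aa and H2-DMa had no AGNNAC at that spacing. In H2-Aa, however, GGCAAC, which differs from AGNNAC in its first letter, precedes ATTGG at about that spacing. The absence in H2-Aa thus depends on the letters searched. A match of letters is a description and does not show a bound site.

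All 9 genes had a higher average in iWAT than in eWAT. The difference exceeded 1 log2 unit for 8 of them, H2-DMb1 being the exception, and the median of all 9 was 1.36, a 2.57-fold higher level. H2-Eb1 (1.03) and H2-DMa (1.09) exceeded it only narrowly. Among the 13895 genes whose average CPM, taken as the mean of both tables, was at least 1, 6.40% were above 1 in this direction, 3.99% were below −1, and the median was 0.02. All 9 class II genes passed that limit, H2-Oa only through its level in iWAT. A gene of any list below could likewise pass through 1 table alone, which then sets its direction. In bulk tissue, fewer cells of a type and less RNA per cell cannot be told apart. The genes fell into a group with differences between 0.86 and 1.42, then Ciita, then the pair H2-Oa and H2-Ob far above the rest.

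**Figure D1:**
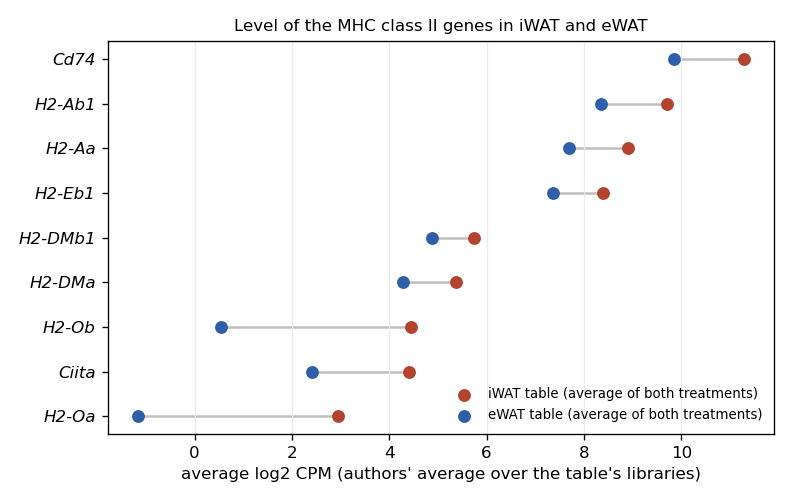
Average log2 CPM of the 9 MHC class II genes (horizontal axis), as the authors' average over the libraries of the iWAT and of the eWAT table, both treatments together, so that no error can be drawn. The iWAT point is to the right for all 9 genes, by 0.86 for H2-DMb1 and by 4.11 for H2-Oa.

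Cd74 and the class II chains made up most of the signal. Cd74, which encodes the invariant chain and lies on chromosome 18 from 60803849 to 60812652, averaged 11.28 log2 CPM in iWAT and 9.86 in eWAT in the authors' tables, that is 2487 CPM in iWAT and 927 CPM in eWAT. It stood above 99.7% of the 13895 genes in iWAT and above 99.3% in eWAT on this scale. H2-Ab1, the beta chain of I-A, averaged 9.71 log2 CPM in iWAT and 8.35 in eWAT, and H2-Aa, its alpha chain, 8.91 in iWAT and 7.69 in eWAT. Both chains of I-A were thus higher in iWAT by nearly the same amount, 1.36 for the beta and 1.22 for the alpha chain. H2-Eb1, the beta chain of I-E, averaged 8.39 log2 CPM in iWAT and 7.36 in eWAT, a difference of 1.03. Its alpha partner H2-Ea, annotated as a transcribed pseudogene in RefSeq, stood at −2.71 log2 CPM in iWAT and at −2.33 in eWAT, within 0.11 of the lowest value of the iWAT table and at the lowest value of the eWAT table. Mice of this background are known to lack I-E on the cell surface because this alpha chain is not made. Together, Cd74 and the 3 chains held 96.6% of the summed CPM of the 9 genes in iWAT and 96.7% in eWAT.

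The peptide exchanger H2-DM was far less abundant, and its differences between depots were in the range of the class II chains or below it. H2-DMa, its alpha chain, averaged 5.37 log2 CPM in iWAT and 4.28 in eWAT, a difference of 1.09. H2-DMb1, a beta chain, averaged 5.75 in iWAT and 4.88 in eWAT, a difference of 0.86. H2-DMb2, a second beta chain gene next to it, is not one of the 9 and averaged 4.46 log2 CPM in iWAT and 1.58 in eWAT. The difference of 2.88 for H2-DMb2 was above that of H2-DMb1, though these near-identical genes can share reads and the authors' handling of such reads is not given in the sources used here, so the split between them is uncertain. The same caution holds for H2-Eb2, a paralog of H2-Eb1, with 1.92 log2 CPM in iWAT and −1.67 in eWAT.

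The inhibitor H2-O showed the largest differences of the 9 genes. H2-Oa, its alpha chain, averaged 2.94 log2 CPM in iWAT and −1.16 in eWAT, or 7.68 CPM in iWAT and 0.446 CPM in eWAT. H2-Ob, its beta chain, averaged 4.44 log2 CPM in iWAT and 0.54 in eWAT, or 21.8 CPM in iWAT and 1.45 CPM in eWAT. On the authors' scale these are 17.2-fold and 15.0-fold differences. Only 75 of the 13895 genes had a difference as large as that of H2-Ob or larger. The average log2 CPM includes a small prior count, and its lowest value was −2.82 in iWAT, shared by 6123 genes, and −2.33 in eWAT, shared by 6814 genes. H2-Oa lay 1.17 above that floor in eWAT, and its difference was 4.93 with the floor of each table subtracted.

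Ciita was low in both depots and stood between these groups. It averaged 4.41 log2 CPM in iWAT and 2.42 in eWAT, a 3.97-fold difference. This was 21.2 CPM in iWAT and 5.35 CPM in eWAT. Of 10 genes for the factors and acetyltransferase coactivators that work at class II promoters, none differed by more than 1 log2 unit, and their median was 0.02. Rfx5, a subunit of the factor on the X box, averaged 2.01 log2 CPM in iWAT and 1.18 in eWAT, Rfxank, another, 4.50 in iWAT and 3.79 in eWAT, while their partner Rfxap averaged 0.95 in iWAT and 1.64 in eWAT. Among 13 regulators of Ciita and of the interferon gamma route above the limit, 2 were more than 1 log2 unit higher in iWAT, Irf8 and Irf4, transcription factors of myeloid and B cells. Irf8 averaged 5.17 log2 CPM in iWAT and 4.04 in eWAT, and Irf4 2.87 in iWAT and 1.59 in eWAT. Ifng itself was under the limit, with −0.27 log2 CPM in iWAT and −1.27 in eWAT.

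Levels of different genes were compared per length, with each log2 CPM reduced by the log2 of the gene's summed exon length in kb (GENCODE M21). On this scale Cd74 led in both depots, with 10.53 in iWAT and 9.11 in eWAT, followed by H2-Ab1, H2-Eb1, H2-Aa, H2-DMb1 and H2-DMa in the same order in both. The last places differed. In iWAT they were H2-Oa at 2.45, H2-Ob at 2.02 and Ciita at 1.16, whereas in eWAT they were Ciita at −0.83, H2-Oa at −1.66 and H2-Ob at −1.89. H2-Oa and H2-Ob exchanged places in both depots when the longest transcript was used as length. With that length Cd74 still led, 2.55-fold above H2-Ab1 in iWAT and 2.44-fold in eWAT. Without a spread, no neighbours in these orders can be called different.

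Ratios within a table do not depend on how the tables were scaled to each other, though those with H2-Oa in eWAT rest on a level near the floor. Per length, the beta over alpha ratio of I-A was 2.59 in iWAT and 2.34 in eWAT, and that of H2-DM, from H2-DMb1 and H2-DMa, was 2.67 in iWAT and 3.11 in eWAT. The ratio of I-A depended on the length used and was 4.65 in iWAT and 4.21 in eWAT with the longest transcripts. Cd74 stood 4.54-fold above H2-Ab1 in iWAT and 4.35-fold above it in eWAT. These ratios were closer between the depots than those of H2-DM to H2-O. H2-DMa stood 2.19-fold above H2-Oa in iWAT, against 17.8-fold in eWAT, and H2-DMb1 stood 7.88-fold above H2-Ob in iWAT, against 65.1-fold in eWAT. With the longest transcripts, H2-DMa over H2-Oa was 3.59 in iWAT and 29.1 in eWAT, and H2-DMb1 over H2-Ob 4.68 in iWAT and 38.7 in eWAT. H2-DMa relative to H2-Aa was 0.0948 in iWAT and 0.104 in eWAT. The excess of H2-DM over H2-O transcripts was thus larger in eWAT, by 8.11-fold for the alpha and by 8.25-fold for the beta chains, whichever length was used. With the floor of each table subtracted these were 14.2-fold and 9.46-fold, so the value for the alpha chains is not firm. All ratios with H2-DMb1 leave out H2-DMb2, whose difference between depots was larger (2.88). The split of reads between these beta chain genes is uncertain, so those ratios are not firm either.

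**Figure D2:**
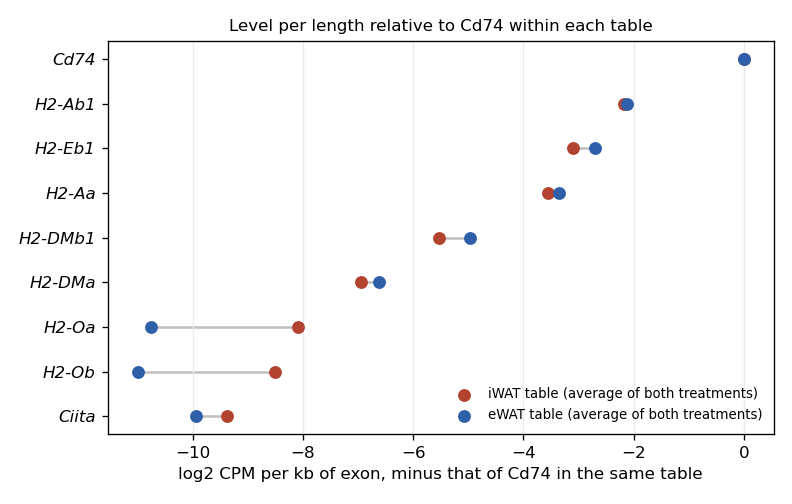
Level of each MHC class II gene per kb of exon relative to Cd74 in the same table, in log2 units (horizontal axis), with 1 point for iWAT and 1 for eWAT and no error available. H2-Ab1, H2-Aa, H2-Eb1, H2-DMa and H2-DMb1 lie further below Cd74 in iWAT, while H2-Oa and H2-Ob lie near −8 in iWAT (−8.08 and −8.52) and near −11 in eWAT (−10.77 and −11.00).

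The proteases and partners of the class II route in the endosome were mostly alike in the depots. Of 14 genes of this list, 3 were more than 1 log2 unit higher in iWAT, none was lower by that much, and the median was 0.18. Ctss, the cathepsin that removes the invariant chain in B cells and dendritic cells, averaged 6.71 log2 CPM in iWAT and 5.64 in eWAT. Marchf1, a ubiquitin ligase that takes class II off the surface, averaged 4.04 in iWAT and 2.58 in eWAT, and Ctse, an aspartic protease of immune cells, 1.01 in iWAT and −1.27 in eWAT. Ctsl, a cathepsin that does this work in the cortical epithelium of the thymus, averaged 8.28 in iWAT and 8.90 in eWAT.

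Costimulatory genes of antigen-presenting cells were also higher in iWAT. Of 6 above the limit out of 10 listed, 5 were more than 1 log2 unit higher in iWAT, with a median of 1.69. Cd86, a ligand of CD28, averaged 3.94 log2 CPM in iWAT and 2.27 in eWAT, Cd40, which receives help from T cells, 2.76 in iWAT and 0.93 in eWAT, and Cd83, a marker of mature dendritic cells and activated B cells that stabilizes class II on the surface, 5.49 in iWAT and 3.47 in eWAT. On the side of the CD4 T cell, 8 of 9 genes were more than 1 log2 unit higher in iWAT, with a median of 2.99. Cd4, the coreceptor that binds class II, averaged 3.63 log2 CPM in iWAT and 0.64 in eWAT. Lag3, an inhibitory receptor that also binds class II, was the exception, with 4.04 in iWAT and 3.90 in eWAT. Of 8 neighbours in the MHC above the limit, both paralogs named above included, 5 were more than 1 log2 unit higher in iWAT, with a median of 1.08. Psmb8, of the immunoproteasome, had 171 CPM in iWAT and 63.8 CPM in eWAT, and Tap1, a peptide transporter, averaged 6.01 log2 CPM in iWAT and 4.92 in eWAT.

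Markers of lymphocytes and of lymph node stroma were also higher in iWAT for the most part, and their part in the differences was not tested. Of 16 B cell markers, 15 were more than 1 log2 unit higher in iWAT, with a median of 4.21, and 8 were at 1 CPM or more in eWAT. Cd79a averaged 5.78 log2 CPM in iWAT and 0.73 in eWAT, and Cd79b 5.43 in iWAT and 1.34 in eWAT. Ighm, the heavy chain gene of IgM, went against the others with 9.25 in iWAT and 10.68 in eWAT, and it set the summed level of the list, 936 CPM in iWAT and 1658 CPM in eWAT. All 12 T cell markers were more than 1 higher in iWAT (median 3.10), with summed levels of 177 CPM in iWAT and 18.7 CPM in eWAT. Cd3d averaged 3.77 log2 CPM in iWAT and 0.57 in eWAT, Cd3e 4.45 in iWAT and 1.27 in eWAT, and Cd3g 4.35 in iWAT and 1.44 in eWAT. Of 10 markers of lymph node stroma and sinus above the limit, 7 were more than 1 higher in iWAT and 1 was lower by more than 1 (median 1.78), the lower one being Chst4, a sulfotransferase of high endothelial venules. Ccl19 averaged 2.72 log2 CPM in iWAT and −1.05 in eWAT, Ccl21a 5.29 in iWAT and 3.86 in eWAT, and Cxcl13 4.97 in iWAT and 1.38 in eWAT. All 12 markers of this list summed to 753 CPM in iWAT and 790 CPM in eWAT, with Mfge8, also made outside lymph nodes, the most abundant at 9.03 log2 CPM in iWAT and 9.22 in eWAT. Of 7 NK cell markers, 6 were more than 1 higher in iWAT (median 1.43), and of 6 plasma cell markers 3 (median 0.80). A few genes, such as Ccr7, Cd83 and Cr2, stand in more than 1 list.

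Markers of dendritic cells and macrophages had smaller median differences than those of B and T cells. Of 14 dendritic cell markers, 8 were more than 1 log2 unit higher in iWAT, with a median of 1.05 and summed levels of 234 CPM in iWAT and 128 CPM in eWAT. Flt3 averaged 2.31 log2 CPM in iWAT and −0.08 in eWAT, Zbtb46 3.77 in iWAT and 3.16 in eWAT, and Xcr1 1.34 in iWAT and 0.24 in eWAT. Of 16 macrophage and monocyte markers, 2 were more than 1 higher and 2 more than 1 lower in iWAT, with a median of 0.56 and summed levels of 884 CPM in iWAT and 642 CPM in eWAT. Adgre1 averaged 5.25 log2 CPM in iWAT and 4.47 in eWAT, Cd68 5.18 in iWAT and 4.68 in eWAT, and Csf1r 6.46 in iWAT and 5.79 in eWAT. Set side by side, the differences of Cd74, H2-Aa, H2-Ab1, H2-Eb1, H2-DMa and H2-DMb1 (0.86 to 1.42) spanned the dendritic cell median. They lay above the macrophage median and also spanned the median of the MHC neighbours (1.08). The NK cell median (1.43) was just above their highest value. The differences of H2-Oa and H2-Ob (4.11 and 3.91) lay near the B cell median, and that of Ciita (1.99) lay between these groups. The values of H2-Oa and H2-Ob were also within the ranges of the T cell (2.40 to 4.32), dendritic cell (−0.18 to 4.32) and lymph node (−2.14 to 4.23) markers. These ranges reach so high only through Ccr7 and Cd8b1 (T cell), Ccr7 (dendritic cell), and Glycam1 and Cr2 (lymph node). The medians were −0.12 for 8 endothelial, −0.06 for 10 adipocyte and 0.33 for 8 progenitor markers.

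**Figure D3:**
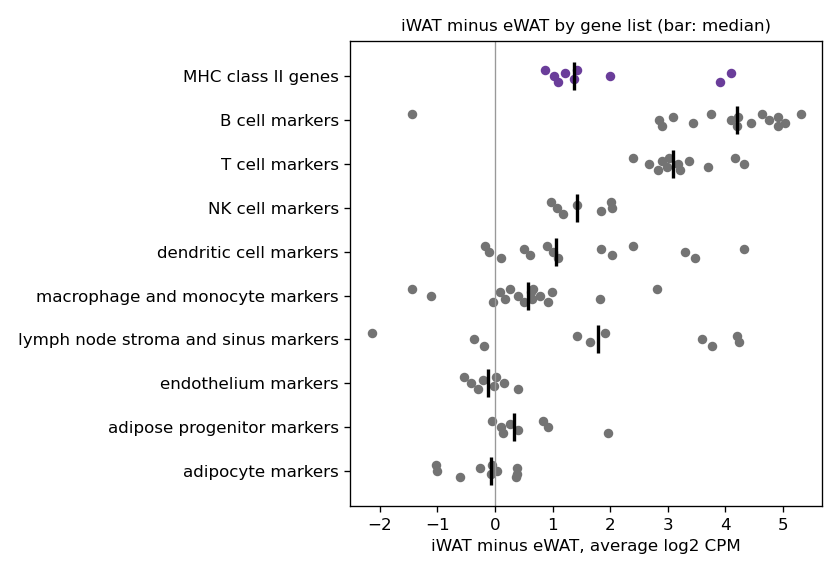
Difference of the average log2 CPM, iWAT minus eWAT (horizontal axis), for the 9 MHC class II genes (purple) and for the markers of 9 cell types or structures above the expression limit (grey), 1 point a gene, with a bar at the median of each list. H2-Oa and H2-Ob, at 4.11 and 3.91, stand apart from the other class II genes and within the ranges of the B cell, T cell, dendritic cell and lymph node markers, whose medians are 4.21, 3.10, 1.05 and 1.78. The dendritic cell range reaches them only through Ccr7, which is also listed as a T cell marker. The T cell range reaches them only through Ccr7 and Cd8b1. The lymph node range does so only through Glycam1, at the floor in eWAT, and Cr2, which is also listed as a B cell marker.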

How the data were processed

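Polyadenylated RNA of 12 samples (3 each of iWAT and eWAT with GIP analog or saline, from 200 ng of RNA) was sequenced as paired reads. Per the labels and the study's methods, reads were trimmed (Trim Galore 0.6.4) and mapped to GRCm38 (Rsubread), and the authors used DESeq2 1.32.0 to filter and edgeR 3.34.0 for their differential expression. The counting step and its annotation are not given in the sources used here. The values used are the average log2 CPM that the authors deposited for each gene and tissue, 1 value over the libraries of both treatments. A further 12 columns, headed by bare numbers that fit no label, were left out, so sequencing depth and the precision it gives are unknown here. The authors' comparison columns (fold change, likelihood ratio, p-value and FDR, 8 in all) were not used either.

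The planned tests on counts per sample compared treatments, or depots within 1 treatment, and were not run because the treatment of each column is not known. A test of depots over both treatments was left out too, since columns that match no label may hold samples of another series. The deposited averages were taken to be those of the labelled libraries, which could not be checked and carries the same doubt. Accordingly, the rule for named genes was kept only where it needs no p-value or correlation: all 9 members, both paralogs and the first 3 markers of the adipocyte, B cell, T cell, dendritic cell, macrophage and lymph node lists. Some genes that the rule or the lists hold are not reported here by name. Pathway genes and other genes were named after their values were seen. The differences are iWAT minus eWAT in average log2 CPM. Lists were described by the median and by the number past 1 log2 unit, over the 13895 genes with a mean CPM of at least 1; 95.7% of these have an exon length in GENCODE M21. Members and lists were chosen with earlier results of these data known. Summaries and motif search were tested on simulated data. Python 3.11.15, pandas 2.3.3 and numpy 2.4.6 were used.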

Additional observations from a re-analysis of the deposited data

How the results depend on the processing

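No paired analysis was possible because the columns of values per sample carry no replicate number. Since these columns were not used, leaving out replicates and other normalizations, filters, tests and tools for counts were not run. The alternatives for the depot differences were chosen after seeing the data. The number of class II genes more than 1 log2 unit higher in iWAT stayed at 8 of 9 with differences centred on the median of all genes and with the floor of each table subtracted. These alternatives hardly test the count, since centring lowered each difference by only 0.02 and subtracting the floor raised each one. H2-Eb1 (1.03) and H2-DMa (1.09) lay close to the limit, so a small offset between the separately normalized tables could lower the count. No difference turned its sign. H2-Oa moved to 4.93 with the floor subtracted. Ratios between members moved with the transcript length used, and those with H2-Oa also with the floor, as given in the report. None of the 6 ratios given there crossed 1, whereas H2-Ob and H2-Oa changed order with the length. The share of all genes past that fold was 4.18% with an average CPM of at least 1 in both tables and 3.12% with a mean of at least 10 CPM, against 6.40% in the report. The X1 pattern matched 3 member promoters, and 7 in its shorter form. Each average rests on an unknown number of reads, and how far single libraries set it is unknown.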
